A study of Mus musculus with 20 samples.

Results

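The integrin and laminin subunit genes of the mouse were followed across 7 groups of cultured cells from a study of host cells that grew beside a human glioma. Members were the protein-coding genes whose symbol in the deposited annotation begins with Itga or Itgb, or names an alpha, beta or gamma laminin chain. They numbered 37 of the 43432 genes in the count table, namely 18 integrin alpha chains, 8 integrin beta chains and 11 laminin chains. A filter on low counts left 36 of them among 15779 tested genes. Itgb6, the chain that pairs with alpha-v in epithelia, failed the filter and stayed at or below 0.12 CPM (counts scaled to the size and composition of each library) in every library.

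Integrins are receptors of an alpha and a beta chain that hold cells to the matrix outside them and to other cells, and an alpha chain without a partner beta chain is not carried to the cell surface. Laminins are trimers of an alpha, a beta and a gamma chain and form the main sheet of basement membranes. Adherent mesenchymal cells rely on integrins that share the beta-1 chain, whereas the beta-2 and beta-7 chains are known from blood cells.

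All samples came from cells of nude mice, kept in DMEM with 10% fetal bovine serum, and the labels say that cells were grown as monoclonal cultures before sequencing. SU3 is a line of human glioma stem cells. C12 (3 libraries) was labelled as macrophages transformed in culture beside SU3 and peritoneal washing cells, ih_CTC (3) as transformed macrophages of a peritoneal xenograft, and ih_DCTC (3) as dendritic cells of bone marrow transformed beside SU3 in culture. ih_BCTC (3) was labelled as transformed oligodendrocytes regrown from an SU3 tumour of the brain, and ih_STC_BM (3) as transformed mesenchymal stem cells regrown from a tumour in a mouse with damaged and reconstructed bone marrow. These 5 groups are called lines here. MDSC (3), myeloid-derived immunosuppressive cells, and MSC (2), mesenchymal stem cells from normal bone marrow, were not labelled as transformed. C12, ih_CTC and ih_DCTC were set against MDSC, and ih_STC_BM against MSC. ih_BCTC has no group of its own cell type to be set against and was compared with MSC.

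Libraries held 8794777 to 12400640 counts, and the labels do not say whether replicates came from separate cultures or animals, so p-values measure the spread between these libraries only. The 3 MDSC libraries lay closer together than those of any other group, with a root mean square difference of 0.413 to 0.417 in log2 CPM between pairs against 0.474 to 1.57 elsewhere. The squared difference between paired counts, over that from counting error and averaged over genes, was 1.70 to 3.21 in MDSC and 24.3 to 265 elsewhere. Comparisons with MDSC thus rest on libraries whose spread came close to counting error. Intronic reads made up 9.64% to 10.36% of the total for MDSC, 2.07% and 3.09% for MSC and between 1.02% and 8.52% for the line libraries. With this intron share as a covariate, 10 of 181 calls on members in the main comparisons ended and 14 began. The share of MDSC overlapped that of no other group, so in comparisons with MDSC this fit cannot separate intron share from group. Summed over 12 leukocyte marker genes, levels were 8047 to 8138 CPM in MDSC, 4928 to 6804 in MSC and 2.93 to 44.8 in the lines, so leukocyte markers were near 0 in lines labelled as macrophages and dendritic cells. Ptprc, the common leukocyte antigen CD45, did not exceed 1.18 CPM in any line. Summed macrophage and monocyte markers were higher in MSC (17949 to 23948 CPM) than in MDSC (6794 to 7059). In the lines they were lower but above the leukocyte sums, at 57.6 to 110 CPM in C12, 107 to 117 in ih_CTC and 60.0 to 204 in ih_DCTC. They were at 41.5 to 79.1 CPM in ih_BCTC and 57.3 to 80.9 in ih_STC_BM. MDSC also carried markers of granulocytes (40523 to 43121), erythroid cells (15421 to 16232) and B cells (1586 to 1641). Dendritic cell markers summed to 1.60 to 14.8 CPM in the lines, 2930 to 3009 in MDSC and 159 to 223 in MSC. Pericyte and smooth muscle markers reached 1502 to 2491 CPM in MSC and stayed at or below 206 elsewhere. Endothelial markers (at most 143 CPM), T and NK cell markers (at most 144) and oligodendrocyte and Schwann cell markers (at most 164 outside MSC, 401 and 478 in MSC) were lower. In ih_BCTC the 10 oligodendrocyte and Schwann cell genes summed to 28.4 to 52.8 CPM, and 4 of them, Olig2 and Sox10 included, had 0 counts. The number with 0 counts was 3 in C12, 4 in ih_CTC, 4 in ih_DCTC, 5 in ih_STC_BM, 2 in MDSC and 2 in MSC. Mesenchymal and fibroblast markers summed to 2818 to 11754 CPM in the lines, 5124 to 5758 in MSC and 55.4 to 58.2 in MDSC. In bulk samples such as these, fewer cells of a type and less RNA per cell cannot be told apart.

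**Figure D1:**
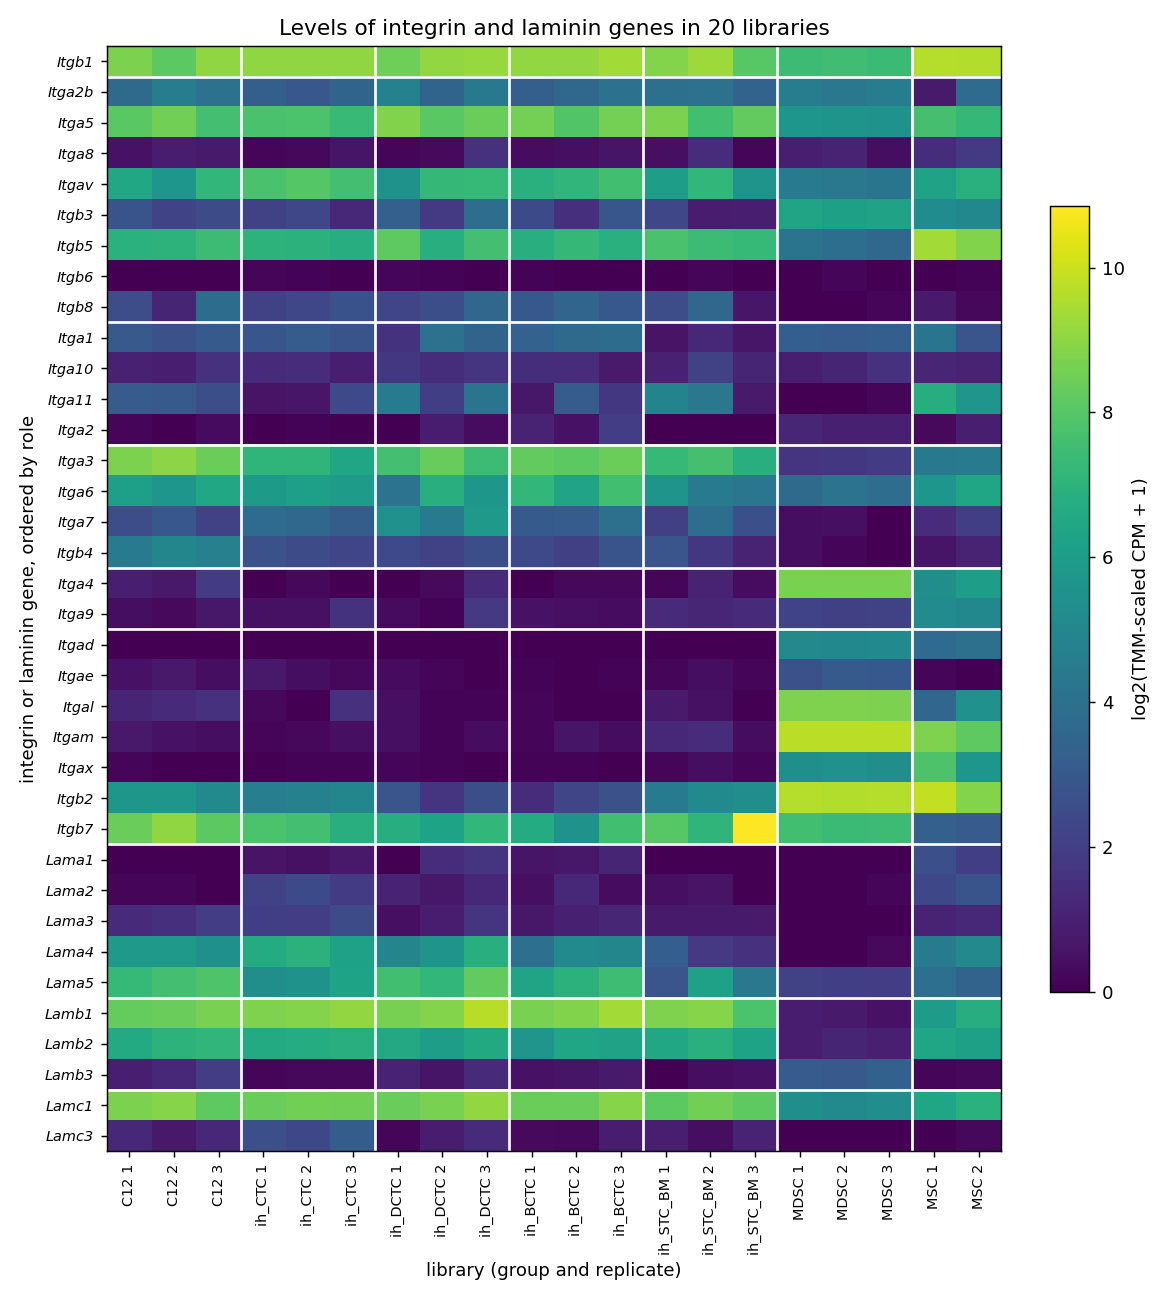
Level of 36 of the 37 genes (rows, ordered by role and divided by white lines) in the 20 libraries (columns, divided by group), as log2 of CPM plus 1 on the colour scale. Itgam, Itgal, Itgax, Itgad and Itga4 are dark in the lines and brighter in MDSC and MSC, Itgb2 is intermediate in C12, ih_CTC and ih_STC_BM, Itgb7 is bright in the lines and MDSC, and most laminin chains are dark in MDSC.

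Since Itgb7 stood apart from the other leukocyte chains in the lines, the 250 bases before the RefSeq start of 3 leukocyte genes are shown, read from GRCm38.p6 on the strand of the gene. The Itgb7 window is chr15:102231936-102232185 on the minus strand, that of Itga4 is chr2:79255176-79255425 on the plus strand, and that of Itgam is chr7:128062390-128062639 on the plus strand. Capitals mark GAGGAA, a longer form of the GGAA core bound by ETS factors such as PU.1, and GGGCGG, the GC box bound by Sp1. Both strands were searched, so that TTCCTC and CCGCCC are the same motifs read from the other strand. GGAA cores outside GAGGAA were neither marked nor counted.
Itgb7: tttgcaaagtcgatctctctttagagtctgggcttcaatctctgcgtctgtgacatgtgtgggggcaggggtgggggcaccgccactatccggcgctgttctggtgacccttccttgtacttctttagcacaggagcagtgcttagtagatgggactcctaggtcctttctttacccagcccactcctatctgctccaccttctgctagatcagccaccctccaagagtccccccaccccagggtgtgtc
Itga4: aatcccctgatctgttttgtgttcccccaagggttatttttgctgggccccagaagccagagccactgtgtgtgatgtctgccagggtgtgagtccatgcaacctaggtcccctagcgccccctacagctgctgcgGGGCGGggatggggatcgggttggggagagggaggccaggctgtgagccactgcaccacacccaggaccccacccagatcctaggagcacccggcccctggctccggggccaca
Itgam: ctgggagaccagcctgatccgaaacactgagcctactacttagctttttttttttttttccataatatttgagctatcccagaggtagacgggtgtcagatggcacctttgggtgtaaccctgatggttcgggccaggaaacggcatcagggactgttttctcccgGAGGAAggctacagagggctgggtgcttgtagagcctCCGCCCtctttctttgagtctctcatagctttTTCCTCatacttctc

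The Itgam window held 2 matches of GAGGAA and 1 of GGGCGG, the Itga4 window held 1 match of GGGCGG, and the Itgb7 window held neither. Among 32851 RefSeq windows of 250 bases, 23.3% held GAGGAA and 32.7% held GGGCGG on either strand. The AP-1 motif TGACTCA was found in none of the 3 windows and in 4.46% of all windows. The window of Itgax, not shown, held 0 matches of GAGGAA, 0 of GGGCGG and 1 of TGACTCA. Itgax is a leukocyte chain that was near 0 in the lines, so the lack of GAGGAA and GGGCGG was not particular to Itgb7. RefSeq starts were matched for 23 of the 37 genes.

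The leukocyte chains were lower in each of C12, ih_CTC and ih_DCTC than in MDSC, with 1 exception. Of 7 chains tested, 6 were lower and 0 higher in each of C12, ih_CTC and ih_DCTC against MDSC, all by edgeR's quasi-likelihood test, and the chain that was not called was Itgb7 each time. Of all tested genes, 30.5%, 27.1% and 28.1% were lower in these comparisons. Itgb7 (ENSMUSG00000001281, chromosome 15 from 102216000 to 102231940 on the minus strand of the deposited annotation, whose genome build no source used here names) encodes beta-7, which pairs with alpha-4 in the gut homing receptor of lymphocytes and with alpha-E in the receptor for E-cadherin. Its level was 329, 523 and 276 CPM in C12, 217, 197 and 110 in ih_CTC, 106, 77.3 and 143 in ih_DCTC, 100.4, 46.4 and 189 in ih_BCTC, 260, 135 and 1851 in ih_STC_BM, 187, 169 and 171 in MDSC, and 9.16 and 7.73 in MSC. Every line library lay above both MSC libraries, as it did for 10.4% of all tested genes. The C12 libraries were all above MDSC, those of ih_DCTC all below it, and the other lines overlapped it. Against MSC the mean of the 5 lines was higher by 4.75 ± 0.91 (log2 fold change and standard error, adjusted p = 4.2e-04 by edgeR), and the line means taken singly were higher by 3.69 (ih_DCTC) to 6.47 (ih_STC_BM). Against MDSC the differences were 1.10 ± 0.68 in C12 (adjusted p = 0.17), -0.01 ± 0.68 in ih_CTC and -0.69 ± 0.68 in ih_DCTC (adjusted p = 0.40), none past the threshold of 0.05. With the intron share as a covariate, Itgb7 was called lower in ih_DCTC (-2.36, adjusted p = 0.029, edgeR), but the intron shares of ih_DCTC and MDSC did not overlap. In order of mean level, ih_STC_BM, C12, MDSC, ih_CTC, ih_BCTC and ih_DCTC did not differ from their neighbours, and only the step from ih_DCTC to MSC was called (adjusted p = 0.0041, and 0.051 without MSC replicate 2).

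The high mean of ih_STC_BM rested on replicate 3. Itgb7 was called higher in ih_STC_BM than in MDSC (2.09 ± 0.70, adjusted p = 0.016), and this call ended without ih_STC_BM replicate 3 (adjusted p = 0.76). The calls of ih_STC_BM over ih_CTC, ih_DCTC and ih_BCTC ended without the same library (adjusted p = 0.80, 0.32 and 0.24). The call over MSC did not depend on any library left out, with a log2 fold change of 3.96 to 6.91 over all alternatives.

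The alpha chains that pair with beta-7 were near 0 in the same libraries. Itga4, which encodes alpha-4 of the receptors for VCAM-1 and MAdCAM-1, was at 411, 408 and 409 CPM in MDSC and at 39.7 and 64.5 in MSC. In C12 it was at 0.879, 0.658 and 2.67 CPM, and the highest level in any other line library was 1.54. No line library reached the lowest MSC library (16% of all tested genes). The log2 fold change against MDSC was -8.13 ± 0.84 in C12 (adjusted p = 3.3e-07, edgeR), -12.51 in ih_CTC and -9.36 in ih_DCTC, and from summed counts ih_CTC was 7024-fold lower (95% counting interval 1944 to 58007). Itgae, which encodes alpha-E of the receptor for E-cadherin, was at 5.52 to 7.33 CPM in MDSC, at 0.104 and 0 in MSC, and at or below 0.673 in the lines. Itgae overlaps Gsg2 (up to 21.9 CPM), and without strand the reads of the pair cannot be told apart. Per kilobase of exon, C12 had 136 CPM of Itgb7 against 0.10 of Itga4 and 0.10 of Itgae. Of the ligands of these receptors, Madcam1 stayed at or below 0.123 CPM in every library, Vcam1 was at 21.01 to 194 CPM in the lines, and Cdh1 (E-cadherin) at 0.101 to 3.14.

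The beta-2 chain was lower in the lines but above 0 in every library. Itgb2 encodes beta-2, the shared chain of LFA-1 (with Itgal), Mac-1 (with Itgam) and the complement receptors of Itgax and Itgad. It was at 794, 786 and 804 CPM in MDSC and 933 and 462 in MSC, at 52.2, 52.3 and 35.3 in C12, 24.04, 26.4 and 30.6 in ih_CTC, 22.1, 35.9 and 38.9 in ih_STC_BM, 6.35, 2.11 and 5.17 in ih_DCTC, and 1.58, 3.87 and 5.52 in ih_BCTC. The lines thus fell into a higher set (C12, ih_CTC and ih_STC_BM) and a lower set (ih_DCTC and ih_BCTC), with no overlap between the sets. Itgb2 differed among the lines (adjusted p = 1.8e-05 for any difference), and C12 was higher than ih_DCTC by 3.37 ± 0.45 and than ih_BCTC by 3.67 ± 0.46 on the log2 scale. Itgb2 was higher in ih_CTC than in ih_DCTC by 2.59 ± 0.44 (adjusted p = 0.0014, edgeR). The summed leukocyte markers were at 30.0 to 44.8 CPM in C12, 4.24 to 7.45 in ih_CTC and 3.54 to 7.35 in ih_DCTC, and their part in Itgb2 was not tested.

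The alpha partners of beta-2 were near 0 in the lines. Itgam, which encodes alpha-M of Mac-1, was at 859, 856 and 837 CPM in MDSC, 435 and 283 in MSC and at most 1.62 in the lines. Itgal, the alpha-L chain of LFA-1, was at 428, 436 and 422 CPM in MDSC, 11.04 and 44.2 in MSC and at most 1.96 in the lines. Itgax (alpha-X, the dendritic cell marker CD11c) was at 41.4, 43.8 and 40.0 CPM in MDSC, 226 and 51.1 in MSC and at most 0.304 in the lines, ih_DCTC included. Itgad (alpha-D) had 0 counts in all 15 line libraries against 32.7 to 34.8 CPM in MDSC and 12.9 and 15.01 in MSC, which makes it at least 348-fold lower in C12, 386-fold in ih_CTC and 363-fold in ih_DCTC than in MDSC (floor of 3 counts over the group, counting error only). Every line library lay below all libraries of MDSC and MSC in these genes, as it did for 9.55% of all tested genes. In MSC these genes stood beside the macrophage markers given above, and the part of those cells in the MSC levels was not tested.

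**Figure D2:**
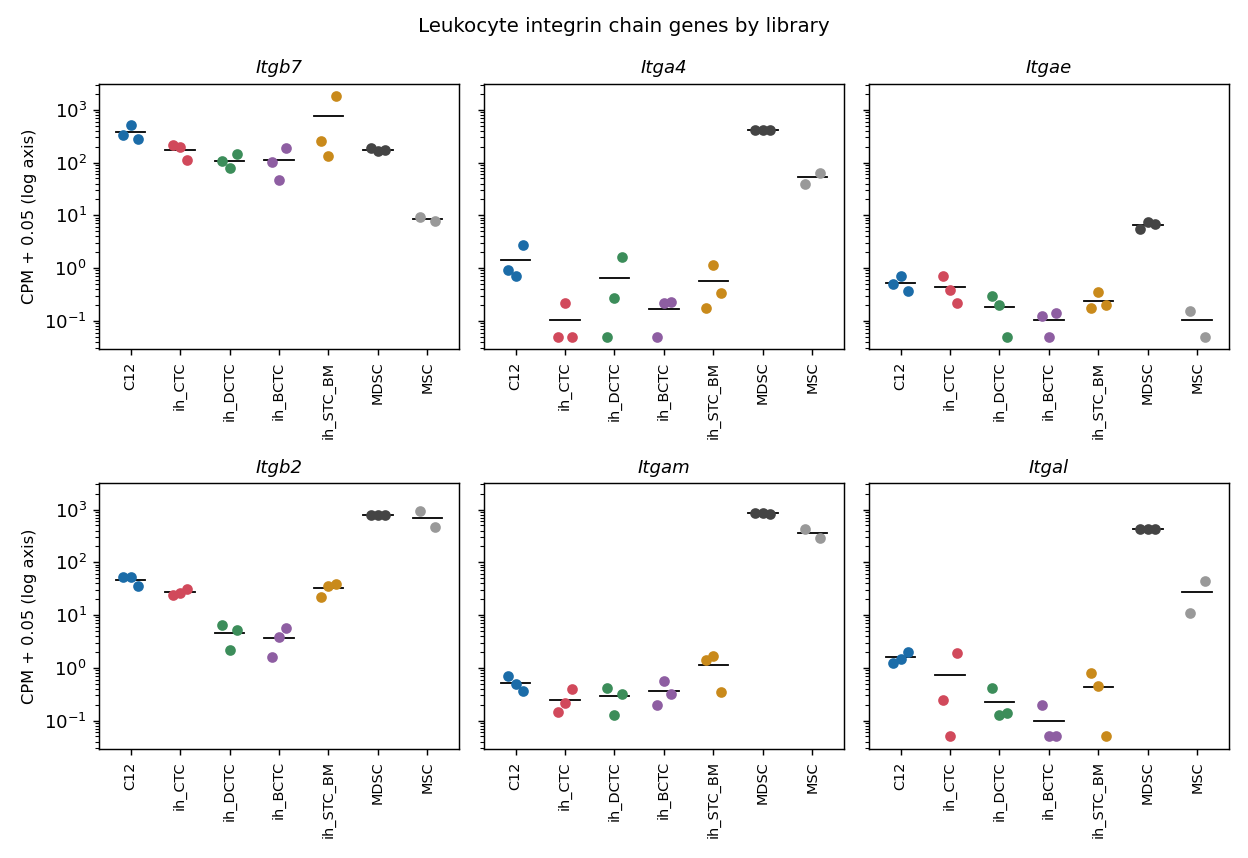
CPM plus 0.05 on a log axis for 6 leukocyte integrin chain genes, 1 point per library and a bar at the group mean, by group. Itgb7 stays at 46.4 CPM or more in every line library while Itga4, Itgae, Itgam and Itgal lie below 3 CPM there, and Itgb2 lies between 1.58 and 52.3 CPM.

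Itga9, which encodes alpha-9, the relative of alpha-4 that binds tenascin and VCAM-1, was highest in MSC (37.0 and 32.1 CPM) and was at 3.13 to 3.53 in MDSC and at most 2.45 in the lines. The lines were lower than MSC by 5.58 ± 0.49 on the log2 scale (adjusted p = 4.7e-08, edgeR). No line library came near either MSC library, and 16% of all tested genes had every line library below MSC.

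Most laminin chains were higher in the lines than in MDSC. Against MDSC, all 5 laminin alpha chains were higher in ih_CTC and in ih_DCTC and 3 of 5 in C12, where 28.2%, 31.2% and 31.3% of all tested genes were higher. The call of Lama1 in ih_CTC ended with MDSC summed (adjusted p = 0.063, edgeR). The gamma chains Lamc1 and Lamc3 were higher in each, and of the 3 beta chains Lamb1 and Lamb2 were higher and Lamb3 lower in each. The call of Lamb3 in C12 ended with the intron share as a covariate (adjusted p = 0.22). Summed over the 11 genes, laminin levels were 1125 ± 72.2 CPM in C12 (SD, n = 3), 1122 ± 90.8 in ih_CTC, 1384 ± 490 in ih_DCTC, 1124 ± 274 in ih_BCTC, 833 ± 216 in ih_STC_BM, 51.9 ± 3.56 in MDSC and 317 ± 56.3 in MSC (n = 2). The lowest line library, at 622 CPM, lay above the higher MSC library, at 356. Summed over the integrin genes, levels were 1489 ± 142 CPM in ih_CTC, 1679 ± 108 in ih_DCTC, 1807 ± 303 in ih_BCTC, 1918 ± 107 in C12, 2037 ± 670 in ih_STC_BM, 3125 ± 29.5 in MDSC and 3163 ± 711 in MSC. The libraries of ih_STC_BM (up to 2807 CPM) overlapped those of MSC (from 2660), and Itgam, Itgb2, Itgal and Itga4 made up most of the sum in MDSC.

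Lamb1 (ENSMUSG00000002900, chromosome 12 from 31265234 to 31329644, plus strand) encodes beta-1, the beta chain of most laminins of the embryo and of laminin-111, laminin-411 and laminin-511. Its level was 312, 332 and 405 CPM in C12, 434, 454 and 550 in ih_CTC, 399, 454 and 836 in ih_DCTC, 403, 439 and 653 in ih_BCTC, 436, 475 and 222 in ih_STC_BM, 0.773, 0.721 and 0.426 in MDSC, and 62.8 and 107 in MSC. All 15 line libraries were above both MSC libraries (10.4% of all tested genes), and MSC was above MDSC. The mean of the lines was higher than MSC by 2.40 ± 0.38 on the log2 scale (adjusted p = 6.7e-05, edgeR), with single lines at 2.05 (C12) to 2.73 (ih_DCTC), and MDSC was lower than MSC by 7.03 ± 0.48. The lines did not differ from each other in Lamb1 past the threshold (adjusted p = 0.38 for any difference).

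Lamc1 (ENSMUSG00000026478, chromosome 1 from 153218920 to 153332790, minus strand), which encodes gamma-1, the gamma chain of most laminins, had the same order. Levels were 422, 475 and 285 CPM in C12, 328, 368 and 359 in ih_CTC, 331, 403 and 542 in ih_DCTC, 345, 331 and 471 in ih_BCTC, 278, 377 and 285 in ih_STC_BM, 41.7, 35.8 and 39.2 in MDSC, and 84.0 and 122 in MSC. Again every line library was above both MSC libraries (10.4% of all tested genes), and the mean of the lines was higher by 1.85 ± 0.28 (adjusted p = 3.7e-05, edgeR). In ih_STC_BM alone the call against MSC (1.60 ± 0.31) ended when only those 2 groups were fitted (adjusted p = 0.052).

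Lamb2 and Lamb3 had other patterns. Lamb2, the beta-2 chain of muscle and glomerular laminins, was at 99.2, 129 and 140 CPM in C12, 97.8, 106 and 109 in ih_CTC, 93.6, 64.8 and 94.7 in ih_DCTC, 49.8, 85.2 and 74.5 in ih_BCTC, 86.8, 117 and 77.7 in ih_STC_BM, 0.773, 1.202 and 0.959 in MDSC, and 82.9 and 71.2 in MSC. All libraries of C12 and ih_CTC were above both MSC libraries, and those of the other lines overlapped MSC. The mean of the lines was not called against MSC (0.28 ± 0.23, adjusted p = 0.38, edgeR), and MDSC was below every other library. Lamb1 made up 39.7% of the beta chain level per kilobase in MSC and 63.4% (C12) to 81.1% (ih_BCTC) in the lines. Lamb3, the beta-3 chain of epithelial laminin-332, was highest in MDSC at 7.09 to 9.27 CPM and at most 2.90 elsewhere. Lamb3 overlaps other transcribed genes, among them G0s2 (up to 402 CPM) and Hsd11b1 (up to 65.1 CPM), and since the strand of the libraries is not given its reads cannot be told apart from theirs.

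Lama5 and Lama4 set the lines apart from each other. Lama5 encodes alpha-5, the chain of laminin-511 of mature basement membranes, and was at 153, 195 and 234 CPM in C12, 40.3, 45.4 and 78.8 in ih_CTC, 187, 144 and 299 in ih_DCTC, 79.7, 125 and 177 in ih_BCTC, 6.17, 73.5 and 19.2 in ih_STC_BM, 3.42, 3.01 and 2.88 in MDSC, and 14.8 and 10.0 in MSC. Apart from ih_STC_BM, whose libraries spanned both MSC libraries, every line library was above MSC. The mean of the lines was higher than MSC by 2.99 ± 0.68 (adjusted p = 0.0018, edgeR), and the lines differed from each other (adjusted p = 0.0082).

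Lama4 encodes alpha-4, the chain of laminin-411 in vessel walls and mesenchyme. Its level was 55.5, 57.2 and 42.7 CPM in C12, 103, 123 and 72.5 in ih_CTC, 29.6, 47.5 and 109 in ih_DCTC, 14.8, 34.2 and 31.0 in ih_BCTC, 8.51, 2.53 and 1.91 in ih_STC_BM, 0, 0 and 0.213 in MDSC, and 20.9 and 34.0 in MSC. The ih_CTC libraries were all above MSC and the ih_STC_BM libraries all below it. Lama4 was lower in ih_STC_BM than in MSC by 2.66 ± 0.61 (adjusted p = 0.0030, edgeR, and 0.059 with only those 2 groups fitted) and higher in ih_CTC than in MSC by 1.86 ± 0.63 (adjusted p = 0.030, and 0.23 without MSC replicate 1). From summed counts, Lama4 was 679-fold higher in C12 than in MDSC (95% counting interval 188 to 5612), 1335-fold in ih_CTC (369 to 11026) and 858-fold in ih_DCTC (237 to 7091).

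Per kilobase, Lama5 was the leading alpha chain in C12 (78.6% of the laminin alpha level), ih_DCTC (78.3%) and ih_BCTC (82.2%), whereas the mean share of Lama4 was 60.3% in ih_CTC and 53.4% in MSC. In ih_CTC the libraries were split, with Lama4 at 44.2% to 69.1% and Lama5 at 27.0% to 50.8%, so no order holds there. In ih_STC_BM the Lama5 share was 74.7 ± 29.9% (SD, n = 3) and ranged from 40.5% to 95.5%.

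The remaining laminin chains were low. Lama2, the alpha-2 chain of muscle and Schwann cell laminin, was at 4.06 and 6.15 CPM in MSC, 2.65 to 4.41 in ih_CTC, at most 1.38 in the other lines and at most 0.107 in MDSC. The mean of the lines was lower than MSC by 3.16 ± 0.53 (adjusted p = 1.0e-04, edgeR), while ih_CTC overlapped MSC (-0.57 ± 0.72, adjusted p = 0.58). Lama1, the alpha-1 chain of early embryonic laminin-111, had 0 counts in C12, ih_STC_BM and MDSC and was at 5.21 and 2.99 CPM in MSC, which makes it at least 41.3-fold lower in C12, 33.1-fold in ih_STC_BM and 35.7-fold in MDSC. Lama3, the alpha-3 chain of laminin-332, had 0 counts in MDSC, was at least 19.9-fold higher in C12, 32.2-fold in ih_CTC and 10.2-fold in ih_DCTC, and did not differ between the mean of the lines and MSC past the threshold (adjusted p = 0.80).

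Lamc3, the gamma-3 chain, was highest in ih_CTC at 5.19, 4.16 and 8.13 CPM, with at most 1.54 in the other lines, 0 in MDSC and 0 and 0.176 in MSC. Lamc3 was called higher in ih_CTC than in each other line (log2 fold change 2.38 over C12 to 3.83 over ih_BCTC), but each of these calls ended without 1 or more single libraries, at adjusted p = 0.057 to 0.17. Lamc3 was higher in the mean of the lines than in MSC (3.40 ± 1.05, adjusted p = 0.017, edgeR), a call that ended without MSC replicate 1 (adjusted p = 0.17).

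**Figure D3:**
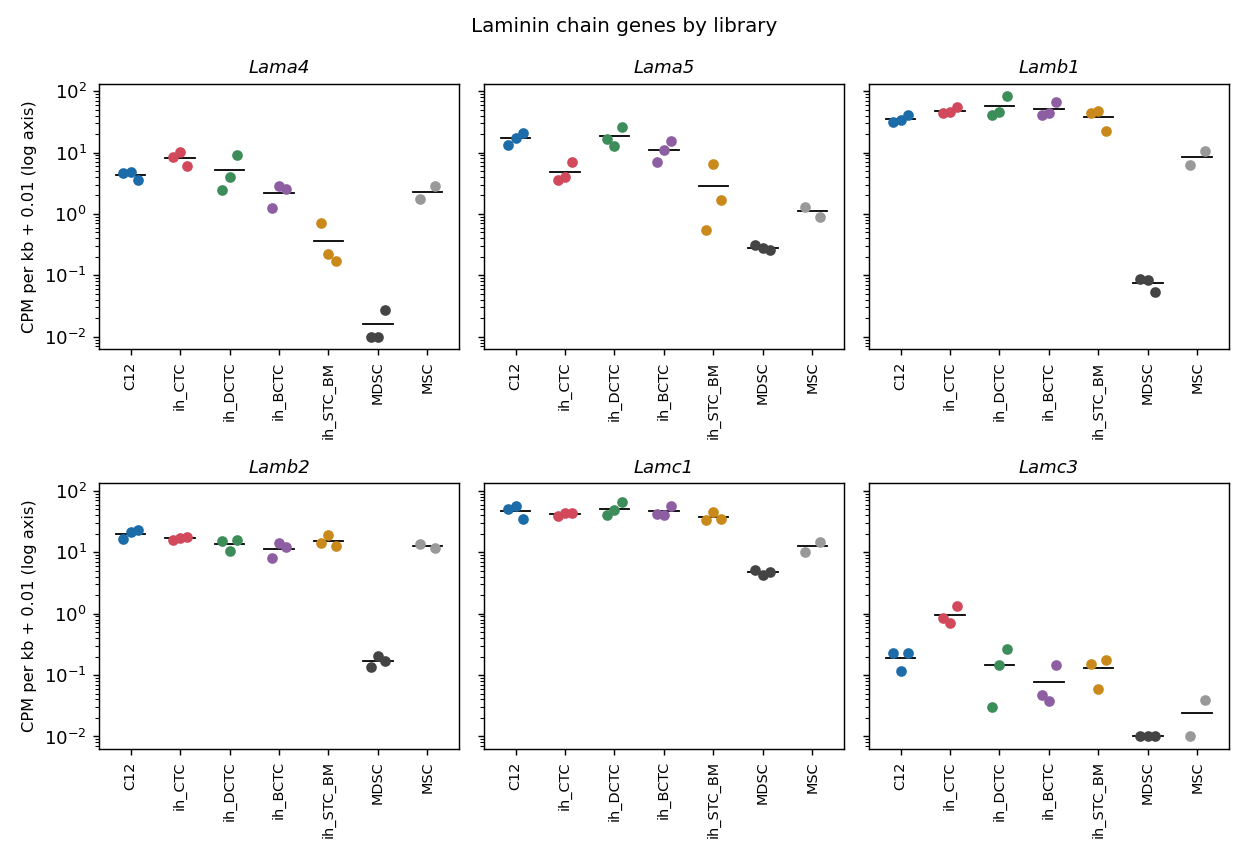
CPM per kilobase of exon plus 0.01 on a log axis for 6 laminin chain genes, 1 point per library and a bar at the group mean, by group. Lamb1 and Lamc1 lie above both MSC libraries in every line library. Lamb2 overlaps MSC in ih_DCTC, ih_BCTC and ih_STC_BM, and Lama4 falls below MSC in ih_STC_BM.

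All 4 laminin receptor chains (Itga3, Itga6, Itga7 and Itgb4) were higher in C12, ih_CTC and ih_DCTC than in MDSC, where 31.3%, 28.2% and 31.2% of all tested genes were higher. Against MSC, Itga3, Itga7 and Itgb4 were higher in the mean of the lines (16.1% of all tested genes). Itga3 (ENSMUSG00000001507, chromosome 11 from 95044474 to 95076801, minus strand) encodes alpha-3, the receptor chain for laminin-332 and laminin-511. It was at 424, 497 and 345 CPM in C12, 136, 137 and 84.1 in ih_CTC, 192, 319 and 172 in ih_DCTC, 304, 276 and 346 in ih_BCTC, 155, 199 and 113 in ih_STC_BM, 2.10, 2.40 and 2.66 in MDSC, and 19.9 and 20.7 in MSC. Every line library was at least 84.1 CPM and every library of MDSC and MSC at most 20.7. Taken singly, 21.6% of all tested genes had every line library above MDSC and 10.4% above MSC. The mean of the lines was higher than MSC by 3.45 ± 0.34 (adjusted p = 2.3e-07, edgeR), a value that stayed between 3.32 and 3.53 under all alternatives. Against MDSC the differences were 7.46 ± 0.38 in C12, 5.63 ± 0.35 in ih_CTC and 6.57 ± 0.36 in ih_DCTC. The lines also differed from each other (adjusted p = 6.0e-04), with C12 above ih_CTC by 1.83 ± 0.29 (adjusted p = 4.4e-04).

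Itgb4 encodes beta-4, which pairs with alpha-6 in the hemidesmosomes of epithelia. It was at 21.9, 31.0 and 25.4 CPM in C12, 5.48, 4.73 and 3.85 in ih_CTC, 4.23, 3.31 and 5.17 in ih_DCTC, 4.21, 3.18 and 6.06 in ih_BCTC, 6.29, 2.43 and 1.03 in ih_STC_BM, at most 0.331 in MDSC, and 0.521 and 1.14 in MSC. All 3 C12 libraries were above every other library. C12 was higher than each other line, by 2.47 ± 0.54 (ih_CTC, adjusted p = 0.0049, edgeR) to 2.99 ± 0.55 (ih_STC_BM, adjusted p = 0.0026, and 0.081 with only those 2 groups fitted). The call of the mean of the lines over MSC (2.81 ± 0.63, adjusted p = 0.0017) ended without MSC replicate 1 (adjusted p = 0.051). Summed epithelial markers were highest in C12, at 31.9 to 105 CPM, but overlapped ih_DCTC (5.12 to 37.9) and ih_STC_BM (24.05 to 48.5), and their part in Itgb4 was not tested.

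Itga6, the alpha-6 partner of both beta-1 and beta-4, was at 68.3, 51.5 and 87.9 CPM in C12, 59.8, 68.2 and 60.7 in ih_CTC, 16.7, 115 and 52.3 in ih_DCTC, 144, 79.3 and 188 in ih_BCTC, 48.8, 21.3 and 18.2 in ih_STC_BM, 12.4, 16.5 and 13.7 in MDSC, and 51.8 and 83.0 in MSC. Lines and MSC overlapped, except for ih_STC_BM, whose libraries were all below MSC. The mean of the lines was not called against MSC (-0.07 ± 0.46, adjusted p = 0.94, edgeR). Calls against MDSC, of 2.29 in C12, 2.15 in ih_CTC and 2.11 in ih_DCTC, ended when the 3 MDSC libraries were summed to 1 (adjusted p = 0.054, 0.075 and 0.075). Itga7, the alpha-7 chain of muscle, was at 44.5, 21.4 and 58.0 CPM in ih_DCTC, 3.21 to 15.1 in the other lines, 0 to 0.361 in MDSC, and 1.56 and 3.07 in MSC. All ih_DCTC libraries were above every other library. Itga7 was higher in ih_DCTC than in C12 by 3.05 ± 0.58 (adjusted p = 0.0020, edgeR) and than in ih_CTC by 1.92 ± 0.55 (adjusted p = 0.040, and up to 0.14 with a library left out), and the difference of 2.03 ± 0.56 from ih_BCTC did not pass (adjusted p = 0.31). The call of Itga7 in the mean of the lines over MSC (2.25 ± 0.62, adjusted p = 0.0075) ended without MSC replicate 1 (adjusted p = 0.13). Itga7 overlaps Mettl7b (up to 14.1 CPM), whose reads cannot be told apart from its own without strand.

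**Figure D4:**
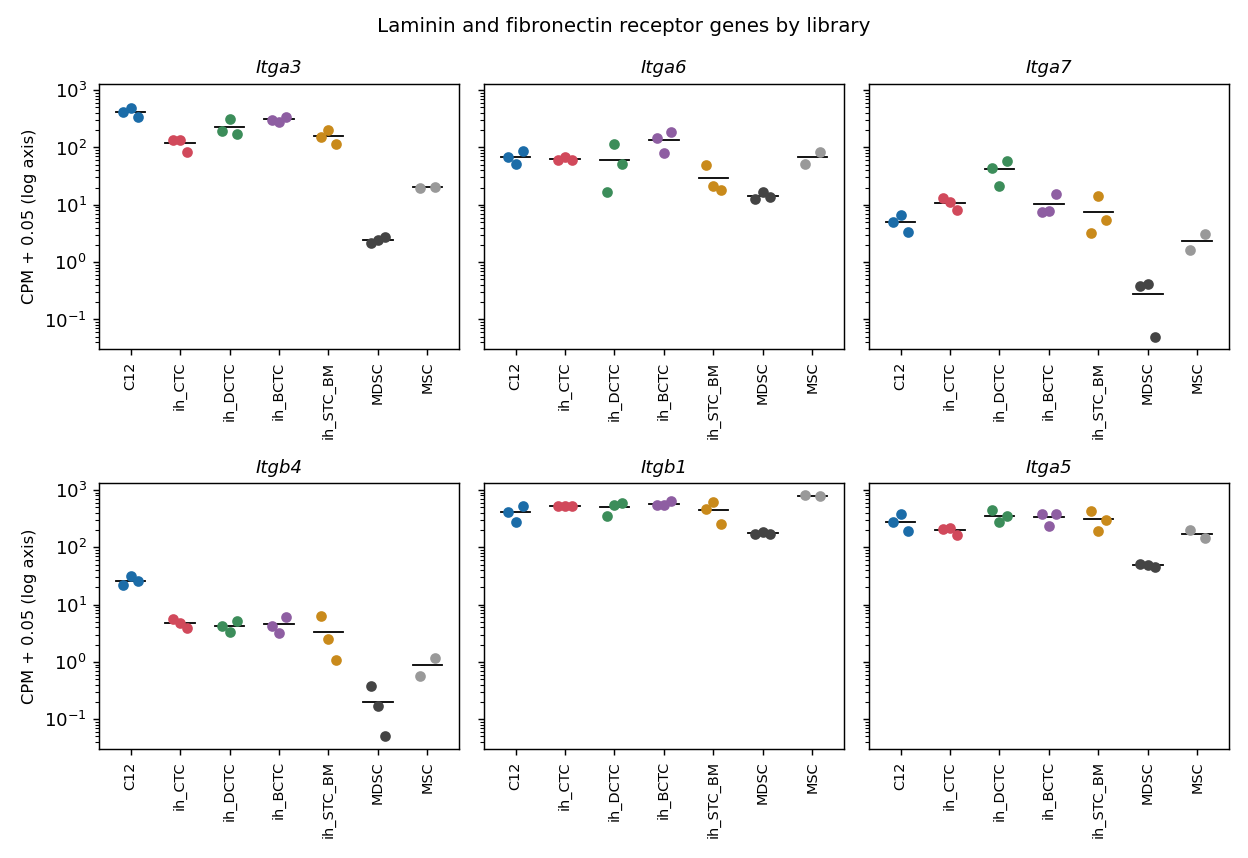
CPM plus 0.05 on a log axis for the 4 laminin receptor chain genes, Itgb1 and Itga5, 1 point per library and a bar at the group mean, by group. Itga3 lies above MDSC and MSC in every line library, Itgb4 is highest in C12 and Itga7 in ih_DCTC.

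Itgb1, the beta-1 chain that most matrix receptors share, was at 420, 279 and 527 CPM in C12, 523, 527 and 529 in ih_CTC, 355, 548 and 586 in ih_DCTC, 554, 539 and 645 in ih_BCTC, 461, 613 and 259 in ih_STC_BM, 173, 185 and 167 in MDSC, and 801 and 772 in MSC. The lines lay between MDSC and MSC with no overlap. Taken singly, 21.6% of all tested genes had every line library above MDSC and 16% below MSC. Against MDSC it was higher by 1.22 ± 0.30 in C12 (adjusted p = 0.0020, edgeR, and 0.079 with MDSC summed), 1.59 ± 0.30 in ih_CTC and 1.51 ± 0.30 in ih_DCTC, and the mean of the lines was lower than MSC by 0.69 ± 0.26 (adjusted p = 0.041, and up to 0.22 with a library left out). Per kilobase, Itgb1 made up 34.2% of the beta chain level in C12 and 64.6% in ih_BCTC, against 11.2% in MDSC and 34.0% in MSC. The Itgb7 share was 45.5 ± 13.2% in C12 (SD, n = 3) and 45.8 ± 34.7% in ih_STC_BM, and its range overlapped that of Itgb1 in both lines.

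Of the 7 tested receptors for RGD ligands, which bind fibronectin and vitronectin through an arginine-glycine-aspartate motif, 4 were higher (Itga5, Itgav, Itgb5 and Itgb8) and 1 lower (Itgb3) in each of C12, ih_CTC and ih_DCTC than in MDSC. Among all tested genes 28.2% to 31.3% were higher and 27.1% to 30.5% lower. Itga5, the alpha-5 chain of the fibronectin receptor, was at 271, 376 and 193 CPM in C12, 212, 216 and 161 in ih_CTC, 451, 272 and 344 in ih_DCTC, 382, 236 and 379 in ih_BCTC, 423, 190 and 303 in ih_STC_BM, 51.1, 48.1 and 44.9 in MDSC, and 198 and 147 in MSC. MDSC was below every other library. All libraries of ih_DCTC and ih_BCTC were above both MSC libraries, and those of the other lines overlapped MSC. Taken singly, ih_DCTC was called higher than MSC, while the mean of the lines was not (0.74 ± 0.31, adjusted p = 0.069, edgeR). Per kilobase, Itga5 made up 36.3% (C12) to 56.7% (ih_STC_BM) of the alpha chain level of the lines and Itga3 22.3% (ih_CTC) to 48.0% (C12), on group means. In ih_CTC Itgav had the same share as Itga3 (22.2 ± 1.84% against 22.3 ± 2.88%, SD, n = 3), and Itgam had the highest mean share in MDSC (56.4%) and MSC (37.7%).

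Itgav, the alpha-v chain of vitronectin receptors, was at 88.6, 51.8 and 147 CPM in C12, 210, 253 and 196 in ih_CTC, 47.1, 150 and 154 in ih_DCTC, 118, 140 and 187 in ih_BCTC, 67.7, 145 and 48.5 in ih_STC_BM, 21.8, 19.1 and 17.5 in MDSC, and 75.2 and 119 in MSC. It was higher than in MDSC by 2.30 ± 0.48 in C12 (adjusted p = 4.9e-04, edgeR), by 3.50 in ih_CTC and by 2.59 in ih_DCTC, and overlapped MSC in every line except ih_CTC. The beta chains that pair with alpha-v moved in different directions. Itgb5, beta-5, was at 121, 127 and 174 CPM in C12, 127, 123 and 109 in ih_CTC, 290, 113 and 193 in ih_DCTC, 114, 149 and 119 in ih_BCTC, 212, 172 and 152 in ih_STC_BM, 17.2, 14.3 and 11.4 in MDSC, and 647 and 448 in MSC. MSC was above and MDSC below every line library, and the mean of the lines was lower than MSC by 1.87 ± 0.23 (adjusted p = 4.1e-06, edgeR). Taken singly, 16% of all tested genes had every line library below MSC and 21.6% above MDSC.

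Itgb3, the beta-3 chain of platelets and osteoclasts, was at 78.8, 70.7 and 74.3 CPM in MDSC, 37.3 and 32.8 in MSC, 6.05, 3.73 and 4.78 in C12, 3.46, 3.92 and 1.37 in ih_CTC, 8.97, 2.63 and 13.8 in ih_DCTC, 4.36, 1.81 and 6.42 in ih_BCTC, and 3.95, 0.811 and 0.880 in ih_STC_BM. All line libraries were below both other groups (9.55% of all tested genes), and the mean of the lines was lower than MSC by 3.15 ± 0.42 (adjusted p = 9.3e-06, edgeR). Summed platelet markers were 238 to 399 CPM in MSC and 22.0 to 22.6 in MDSC, and their part in Itgb3 was not tested. Itgb8, the beta-8 chain that activates latent TGF-beta, was at 0.587 to 13.3 CPM in the lines, 0.729 and 0.176 in MSC and at most 0.107 in MDSC. From summed counts Itgb8 was 195-fold higher in C12 than in MDSC (95% counting interval 34.7 to 7745). The call of the lines over MSC in Itgb8 (3.76 ± 1.06, adjusted p = 0.0087) ended without MSC replicate 2 (adjusted p = 0.12).

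Itga8, alpha-8, was at most 2.55 CPM anywhere and was lower in the mean of the lines than in MSC (-2.001 ± 0.67, adjusted p = 0.024, edgeR, and 0.23 without MSC replicate 2). Itga2b, the platelet chain alpha-IIb, was at 6.61 to 26.6 CPM in the lines, 19.1 to 23.2 in MDSC and 0.729 and 13.1 in MSC, and was not called in any of the 21 pairs of groups.

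Of the 4 collagen receptor alpha chains, 1 was higher and 1 lower in C12 and in ih_CTC than in MDSC and 1 was higher in ih_DCTC, near the shares of all tested genes (28.2% to 31.3% higher and 27.1% to 30.5% lower). The chain that was higher was Itga11, the alpha-11 chain of fibroblasts, and the one that was lower was Itga2, the alpha-2 chain of platelets and epithelia. Itga11 was at 107 and 49.2 CPM in MSC, 7.69, 7.24 and 5.02 in C12, 0.481, 0.571 and 4.28 in ih_CTC, 20.7, 3.01 and 17.0 in ih_DCTC, 0.601, 7.83 and 2.35 in ih_BCTC, 29.2, 18.9 and 0.733 in ih_STC_BM, and 0, 0 and 0.107 in MDSC. Every line library was below both MSC libraries (16% of all tested genes), and the mean of the lines was lower by 3.64 ± 0.69 (adjusted p = 3.5e-04, edgeR). In ih_CTC the call over MDSC ended without ih_CTC replicate 3 (adjusted p = 0.19).

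Itga2 did not exceed 2.89 CPM in any library, and its fall in C12 against MDSC (-2.96 ± 1.08, adjusted p = 0.026) turned to 2.92 with the intron share as a covariate. Its fall in ih_CTC (-4.69) ended in that fit (adjusted p = 0.90). Itga1, the alpha-1 chain, was at 0.493, 1.32 and 0.587 CPM in ih_STC_BM, below every other library (1.99 to 17.5), and was lower there than in MSC by 3.84 ± 0.65 (adjusted p = 2.1e-04, edgeR). Pelo lies within Itga1 on the same strand and reached 84.2 CPM, so reads of the pair could have been split between them. Itga10, the alpha-10 chain of cartilage, was at 0.723 to 3.24 CPM and was called in none of the 21 pairs. Its levels are uncertain, since the strand of the libraries is not given.

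Counts over all 36 tested members are given beside the share of all tested genes called the same way. In C12 against MDSC, 18 were higher and 11 lower, where 31.3% and 30.5% of all tested genes were called higher and lower. In ih_CTC 20 were higher and 10 lower (28.2% and 27.1% of all genes), and in ih_DCTC 20 were higher and 9 lower (31.2% and 28.1%). The median log2 fold change of the members was 1.16, 2.09 and 2.35 in C12, ih_CTC and ih_DCTC, against 0.03, 0.08 and 0.09 over all tested genes. The other lines set against MDSC had 20 higher and 10 lower (ih_BCTC, 28.7% and 27.3%) and 18 higher and 11 lower (ih_STC_BM, 32.3% and 29.4%). All of these comparisons share the MDSC libraries and are not independent of each other. The count of called members is no support for the family as a whole, since a gene that passed the filter through 1 high group had to differ from the others.

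Against MSC fewer members differed. In ih_STC_BM 7 were higher and 14 lower (14.8% and 17.4% of all tested genes), and with only those 2 groups fitted 4 were higher. In ih_BCTC 9 were higher and 11 lower (15.9% and 20.8%). C12 had 11 higher and 13 lower (14.7% and 18.4%), ih_CTC 11 and 13 (14.7% and 19.9%), and ih_DCTC 11 and 10 (16% and 18.1%). These comparisons share the MSC libraries. In the mean of the 5 lines 10 were higher and 15 lower (16.1% and 23.3%). The higher members included Itga3, Itga7 and Itgb4 of the laminin receptors, Lama5, Lamb1, Lamc1 and Lamc3 of the laminins, and Itgb7 and Itgb8. MDSC differed from MSC with 7 higher and 20 lower (20.4% and 25.6%), and all 5 laminin alpha chains and all 4 laminin receptor chains were among the lower. The count of higher members was 3 in the fit with the intron covariate, and the calls of Lama5, Itga6 and Itgb4 ended under at least 1 alternative (adjusted p up to 0.185, 0.0898 and 0.241, edgeR).

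**Figure D5:**
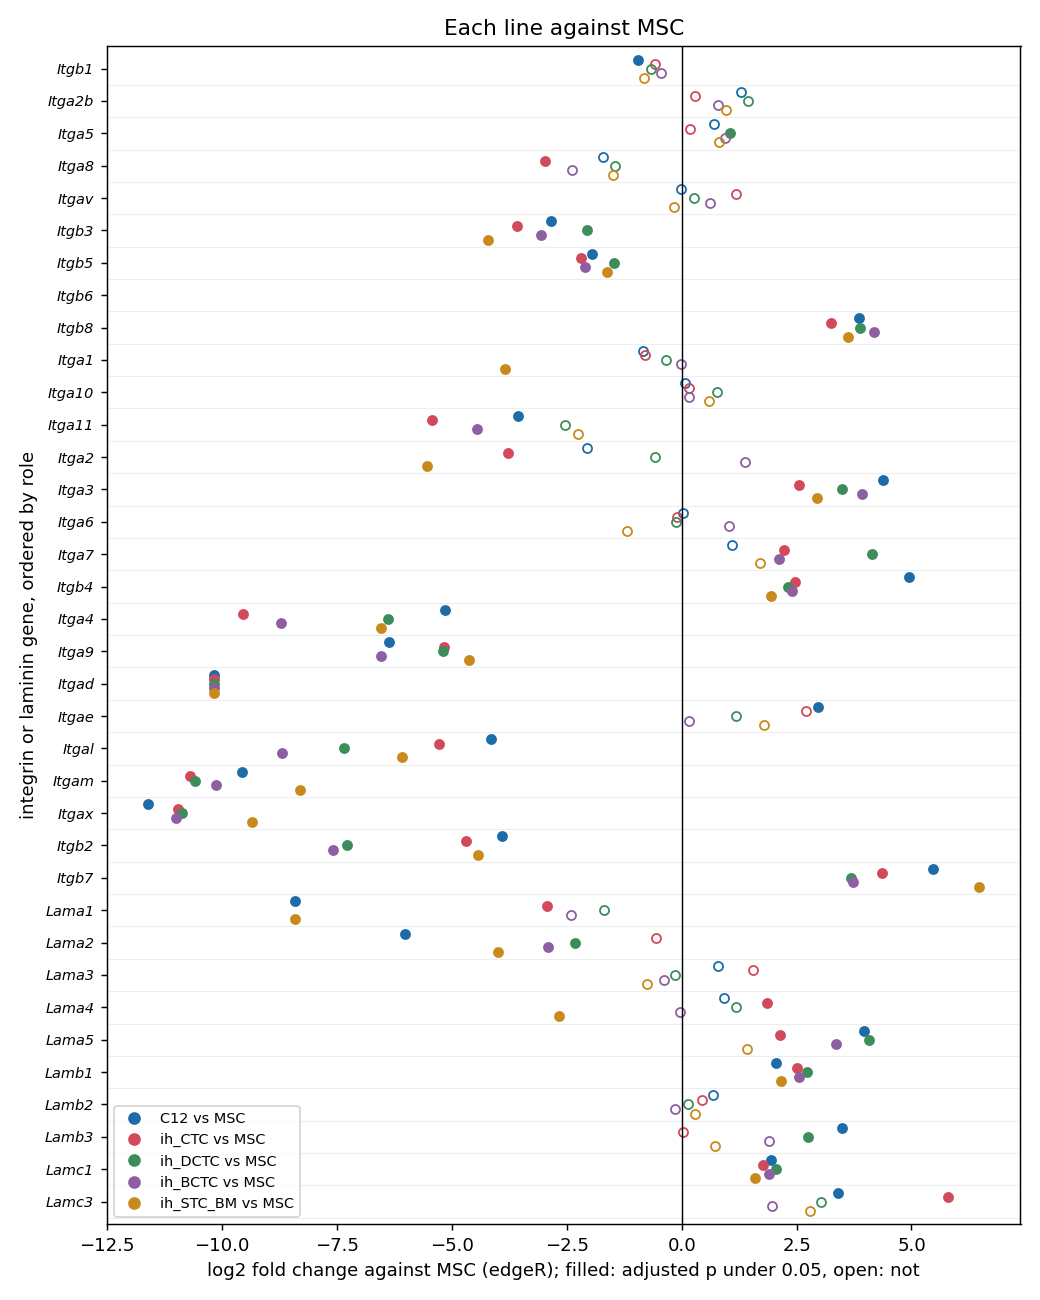
Log2 fold change of each of the 5 lines against MSC for 35 of the 36 tested genes, ordered by role, with filled points where the adjusted p was under 0.05. Itgb7, Itga3, Lamb1 and Lamc1 are to the right of 0 in every line and the other leukocyte chains apart from Itgae to the left. Points of Itgad, and of Lama1 in C12 and ih_STC_BM, rest on 0 counts and are fitted values, not bounds.

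Among the lines themselves, 19 of 36 members differed (33.2% of all tested genes), those with the smallest adjusted p being Itgb2, Lama4, Itgb4 and Itga3. The pair ih_DCTC and ih_BCTC had 0 members and 0% of all tested genes past the threshold by edgeR, with 4 members at an unadjusted p under 0.05, 0 called by limma-voom and 1 by DESeq2 (Itga7). Each other pair of lines had called members, given here as higher and lower in the line named first, with the shares of all tested genes. C12 had 5 higher and 3 lower than ih_CTC (9.6% and 6.9%), among them Itga3, Itgb4 and Lama5 higher, and 3 higher and 4 lower than ih_DCTC (5.69% and 6.52%). It had 6 higher and 3 lower than ih_BCTC (11.5% and 8.5%), and 6 higher and 0 lower than ih_STC_BM (4.46% and 3.07%). In ih_CTC 2 were higher and 3 lower than in ih_DCTC (2.68% and 5.53%), 4 higher and 2 lower than in ih_BCTC (3.38% and 2.91%), and 5 higher and 3 lower than in ih_STC_BM (7.45% and 10.8%). Against ih_STC_BM, ih_DCTC had 7 higher and 3 lower (6.78% and 4.16%) and ih_BCTC 7 higher and 3 lower (9.02% and 11.3%), with Itga1, Lama4 and Lama5 higher in both.

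Other genes of the pathway were read from lists. Of 14 tested partners of laminin in basement membranes, 12 were higher in C12, 11 in ih_CTC and 14 in ih_DCTC than in MDSC and 0 were lower, where 31.3%, 28.2% and 31.2% of all tested genes were higher. Hspg2 (perlecan) had a mean of 664 CPM in C12 and 0.939 in MDSC, and Sparc, a collagen-binding protein, 1314 and 1.53. Against MSC, 6 were higher and 3 lower in the mean of the lines (16.1% and 23.3% of all tested genes). Col4a6, a collagen IV chain that accompanies Col4a5, was at 11.8 to 177 CPM in the lines and 0.0878 and 0.104 in MSC (8.55 ± 0.97, adjusted p = 1.3e-06, edgeR). Col4a5 was higher by 3.61 ± 0.49, whereas Nid2 (nidogen-2, a laminin linker) was lower by 3.70 ± 0.32, at 0.440 to 14.6 CPM against 66.7 and 105. In Col4a6 every line library was above MSC (10.4% of all tested genes) and in Nid2 every one was below it (16%).

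Among 24 tested adaptors of integrin tails, 13, 11 and 12 were higher and 7, 6 and 7 lower in C12, ih_CTC and ih_DCTC than in MDSC. The lower counts are near the shares of all tested genes (30.5%, 27.1% and 28.1% lower, and 31.3%, 28.2% and 31.2% higher). Parva (alpha-parvin) was at 117 to 239 CPM in the lines against 0.107 to 0.240 in MDSC, and Parvg (gamma-parvin, of blood cells) at 0.288 to 7.57 against 154 to 161. Fermt2 (kindlin-2, of adherent cells) was at 24.7 to 139 CPM in the lines and Fermt3 (kindlin-3, which beta-2 integrins need) at 0.633 to 1.97, against 0.213 to 0.552 and 231 to 249 in MDSC. Every line library was above MDSC in Parva and Fermt2 (21.6% of all tested genes) and below it in Parvg and Fermt3 (26.2%), and Fermt2 was picked after its values were seen. Fermt3 was also lower in the mean of the lines than in MSC (-7.81 ± 0.20, adjusted p = 7.4e-15, edgeR), as were Parvg (-4.79) and Ptk2b (-4.25), the kinase of focal adhesions in blood cells, while Ptk2, its relative in adherent cells, was higher (1.08 ± 0.33, adjusted p = 0.016). Fermt3 stood below 2 CPM in the lines in which Itgb7 stood above 46 CPM, and these 2 levels were not set against each other per kilobase.

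Of 18 tested ligands in matrix and plasma, 12, 14 and 14 were higher and 2, 2 and 1 lower in the 3 lines set against MDSC, and 2 were higher and 7 lower in the mean of the lines against MSC. Of all tested genes 28.2% to 31.3% were higher and 27.1% to 30.5% lower against MDSC, and 16.1% and 23.3% against MSC. Fn1 (fibronectin) was higher than in MSC by 1.37 ± 0.48 (adjusted p = 0.030, edgeR), and Thbs2 (thrombospondin-2) by 2.16 ± 0.45. Postn (periostin) and Tnc (tenascin-C, a ligand of alpha-9) were lower by 6.30 ± 0.76 and 4.63 ± 0.49. Of 12 tested laminin receptors other than integrins, 10, 10 and 9 were higher than in MDSC (31.3%, 28.2% and 31.2% of all tested genes), among them Cd151, the tetraspanin partner of alpha-3 and alpha-6 (5.10 in C12, 4.12 in ih_CTC and 4.01 in ih_DCTC). Against MSC, 2 were higher and 1 lower, the latter being Bcam, a receptor of laminin alpha-5 (-1.70 ± 0.46, adjusted p = 0.0064).

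Of 9 tested cell surface ligands, Icam1, Icam2 and Icam4, ligands of beta-2 integrins, were lower in all 3 lines set against MDSC. Icam1 was at 0.304 to 23.0 CPM in the lines, 151 to 154 in MDSC and 42.8 and 46.5 in MSC. In all, 3, 2 and 3 of these ligands were higher and 5, 3 and 4 lower in the 3 lines, partly at the shares of all tested genes (28.2% to 31.3% higher and 27.1% to 30.5% lower). In the mean of the lines against MSC 2 were higher and 3 lower, near the shares of all tested genes (16.1% and 23.3%). Of 9 genes of latent TGF-beta, which alpha-v integrins release from its store in the matrix, 7 were higher and 2 lower (Nrros and Tgfb1) in each of the 3 lines against MDSC, beside the same shares of all tested genes. In the mean of the lines against MSC, 3 were higher and 5 lower (16.1% and 23.3% of all tested genes). Ltbp4, a protein that ties latent TGF-beta to the matrix, was higher by 5.88 ± 0.54 (adjusted p = 9.1e-08, edgeR). Nrros, the anchor of latent TGF-beta on myeloid cells, was lower (-8.93 ± 0.30, adjusted p = 1.1e-13, edgeR).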

How the data were processed

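The authors deposited 1 table of expected counts per Ensembl gene for all 20 libraries, in which 8.37% of values were not whole. TRIzol extraction and TruSeq RNA libraries are recorded, per the labels' protocols. STAR, RSEM 1.2.26 and DESeq2 are named in the submitters' processing notes without roles. The genome build and the strand setting are not given in the sources used here. All 37 members were found in GENCODE M21, 15 with identical start and end. A deposited quality table gives mapped reads (67.42 to 77 percent) and the percent of reads in introns, per the file headers.

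Expected counts were rounded and scaled by TMM in edgeR 4.0.16 (R 4.3.3). Low genes were removed with filterByExpr (groups as design, at least 10 counts, total of 15 or more). The quasi-likelihood model held a mean for each group over all 20 libraries (13 residual degrees of freedom), and two-sided p-values of each comparison were adjusted by Benjamini-Hochberg over 15779 genes, with a threshold of 0.05. CPM are TMM-scaled, and levels of different genes were compared only per kilobase of merged GENCODE M21 exons. Folds against 0 counts use a floor of 3 counts over the group, and ratios with 1 to 3 counts carry 95% intervals, both for counting error only.

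The alternatives tried were scaling by RLE or by upper quartile, no filter, DESeq2 1.42.0, limma-voom 3.58.1, fitting only the groups compared, requiring a log2 fold change over 1, a covariate for intron share, dropping 5 line libraries whose intron share was below 3%, and dropping each library singly. Summing the MDSC libraries to 1, and group sums of levels without each library, were chosen after seeing the data. Scripts were tested on simulated data. Replicate numbers follow accession order. The 37 members, the roles, the pathway lists and the marker lists were chosen with earlier results of these data known. Per-library values were given for a panel of 17 members and for the called members that moved most (up to 4 upward and 4 downward in a comparison, mean of at least 5 CPM), as ranges where levels were low, and from each pathway list up to 3 called genes per direction. Vcam1, Madcam1, Cdh1, Fermt2 and Icam4 were named outside this rule, after their values were seen. Promoter windows were read from RefSeq on GRCm38.p6, without bases past the start. The values of 1 member are not reported here. Tables and figures were made with Python 3.11.15 and matplotlib 3.10.9.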

Additional observations from a re-analysis of the deposited data

Results flagged for a closer look

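Lama4, the laminin alpha-4 gene, differed in opposite directions in 2 lines under the same contrast. Against MSC it was higher by 1.86 on the log2 scale in ih_CTC and lower (-2.66) in ih_STC_BM, and the test of the difference between these lines gave 4.52 (adjusted p = 1.8e-04, edgeR quasi-likelihood). All 3 ih_CTC libraries (72.5 to 123 CPM) were above both MSC libraries (20.9 and 34.0), and all 3 ih_STC_BM libraries (1.91 to 8.51) were below them. Groups of 2 or 3 libraries are too small for a test of stray libraries, so none was made.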

How the results depend on the processing

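Over the 7 main comparisons 181 of 252 values of members were called. RLE scaling and DESeq2 kept 181 of them, a log2 fold change above 1 kept 180, upper quartile scaling and no filter 178 each, leaving out the line libraries of low intron share 177, limma-voom 176, the intron covariate 169 and summing MDSC 164. A fit of the compared groups only kept 162 of 168. Leaving out MSC replicate 1 or 2 kept 77 or 82 of 93, the largest losses among the libraries left out. The number of members higher in ih_STC_BM than in MSC went from 7 to 4 with only the compared groups fitted and ranged from 4 to 8 with a library left out. Members higher in MDSC than in MSC went from 7 to 3 with the intron covariate and ranged from 4 to 6 with a library left out. The cause of these changes was not tested, beyond the smaller number of libraries. The summed level of the members moved from 3043 to 3269 CPM in C12 under upper quartile scaling, and from 3177 CPM in MDSC to 2827 under upper quartile and 3448 under RLE scaling. With a library left out these sums ranged from 2944 to 3115 in C12, 3162 to 3192 in MDSC, 3017 to 3943 in MSC, 2616 to 3119 in ih_BCTC, 2559 to 2648 in ih_CTC, 2723 to 3270 in ih_DCTC and 2590 to 3033 in ih_STC_BM. With the intron covariate the sign turned for Itga2 in C12 against MDSC (2.92) and in MDSC against MSC (-6.08), for Itga4 in MDSC against MSC (-0.28) and for Itgb7 in ih_STC_BM against MDSC (-0.21). Each of these involves MDSC, whose intron share overlapped that of no other group, so intron share and group cannot be told apart there. In that fit 10 calls ended, those of Itga9 and Lamb3 in C12 against MDSC, Itga2 and Itga11 in ih_CTC against MDSC, and Itga5, Itgad, Itgal, Itgam, Itgax and Itgb4 in MDSC against MSC. It began 14 calls, of Itga5 (ih_STC_BM, ih_BCTC and the mean of the lines), Itgb1 (ih_STC_BM and ih_BCTC), Itga8 (ih_STC_BM, ih_BCTC and MDSC), Itgav (ih_STC_BM), Lama1 (ih_BCTC), Itga1 and Itgb8 (MDSC) and Itga2 (mean of the lines) against MSC, and of Itgb7 in ih_DCTC against MDSC. Without the line libraries of low intron share, Itgb7 turned in ih_STC_BM against MDSC (-0.38) and in ih_CTC against ih_STC_BM (0.37), where ih_STC_BM replicate 2 alone was left. Upper quartile scaling moved the median of all genes by 0.27, 0.17 and 0.22 (log2) in C12, ih_CTC and ih_DCTC against MDSC and by -0.13 in MDSC against MSC, and RLE moved the ih_CTC and ih_DCTC medians against MDSC by -0.14 and -0.13. No paired analysis was possible because the labels give no replicate numbers, animals or batches that link libraries across groups. Where 1 library of a group was left, it is assumed to vary like the other groups. Depth sets a floor of 3 counts, or 0.0833 to 0.143 CPM over a group, which limits statements on Itgad, Itgae, Lama1, Lama3 and Lamc3.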

Other observations

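Itgb7 lies on chromosome 15 among Csad, Zfp740, Rarg and Mfsd5 (within 50 kb). Rarg, a retinoic acid receptor on the same strand, was at 123 to 347 CPM in the lines, 12.9 to 15.1 in MDSC and 38.1 and 38.9 in MSC. Zfp740, on the other strand, was at 111 to 246 CPM in the lines, 134 to 139 in MDSC and 56.9 and 57.6 in MSC. Every line library was thus above MSC in both Rarg and Zfp740, a placing that 10.4% of all tested genes had. In ih_STC_BM replicate 3, where Itgb7 reached 1851 CPM, Rarg was at 279 and Zfp740 at 246 CPM, the highest Zfp740 level of any library. Csad and Mfsd5 overlapped between the lines and MSC, at 5.72 to 29.0 and 30.7 to 111 CPM against 18.1 to 22.4 and 89.7 to 119. These values were looked up after the level of Itgb7 had been seen.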
